A study of Mus musculus with 18 samples.

Results

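Collagens are the proteins that form most of the fibrous matrix and the scaffold of basement membranes, and each of their alpha chains has a gene of its own. The collagen chain genes were taken by symbol, as every gene whose symbol consists of Col, a type number, the letter a and a chain number. This gave 44 genes of the 37991 in the count table, and the rule uses the symbol alone. Of the 44 genes, 34 had at least 10 reads in 3 or more libraries.

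Alpha chains wind together in trimers, which then assemble in ways that set the classes. Fibrillar chains (types I, II, III, V, XI, XXIV and XXVII) build the banded fibrils of connective tissue and scar. Type IV chains form the sheet under epithelium and endothelium, where an alpha1 and alpha2 trimer is general and the alpha3, alpha4 and alpha5 trimer is the mature form of the glomerular filter and of part of the tubule. Network chains (types VIII and X) form lattices, and FACIT chains (fibril-associated collagens with interrupted triple helices) sit on the surface of fibrils.

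The data were read counts per gene from bulk RNA of kidney tissue of male Balb/c mice, in 18 libraries that form 6 groups of 3. The untreated group had no injection by its labels. The other 5 groups got folic acid once, at 250 mg/kg into the peritoneum in 0.3 M sodium bicarbonate, and were taken at day 1, 2, 3, 7 or 14. Folic acid at a high dose injures the renal tubule, and the series follows the kidney from that injury into fibrosis. No group carried a mutant allele, the labels give no age, and no vehicle-only group is among the samples, so the effects of vehicle and drug cannot be told apart. The labels do not say that each library came from its own mouse, so p-values here rest on a spread between samples that may be technical.

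Libraries held 8.68 to 54.6 M reads in genes, of which 59.0 to 75.6% lay in the mitochondrial genome, and the lowest total was that of day 2 replicate 2. The 44 collagen genes together had 5055 to 26918 reads a library, or 0.128 to 0.369% of the reads outside the mitochondrial genome. Levels below are CPM, a gene's reads scaled to a fixed number of gene reads per library with TMM factors, and 3 reads, the most that a count of 0 allows, equal 0.0597 to 0.507 CPM depending on the library. The amplified reads carry no molecular identifiers, so such limits cover counting error only. In bulk tissue, fewer cells of a type and less RNA per cell cannot be told apart.

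The 10 genes below the detection rule were Col2a1, Col4a6, Col6a4, Col6a5, Col8a2, Col9a1, Col9a2, Col9a3, Col13a1 and Col28a1. Col2a1 and Col9a1, chains of cartilage, had no read in any library. The other 8 of these had 17 to 73 reads over all 18 libraries. By class, 10 of 11 fibrillar genes were detected, as were 5 of 6 basement membrane genes, 2 of 3 network genes and 6 of 9 FACIT genes. Outside these classes, 4 of 6 beaded filament genes (type VI), 2 of 2 multiplexin genes (types XV and XVIII), 3 of 4 transmembrane genes and 2 of 3 remaining genes were detected.

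Each time was compared with untreated kidney to ask which chains had changed at that stage. The same number of collagen genes as were detected, 34, passed the low-count filter and were tested, and a gene was called changed at an adjusted p under 0.05. At day 1, 6 of the 34 rose and 4 fell, while 5.09% of all 16824 genes tested rose and 5.56% fell. Day 2 had 8 that rose and 6 that fell, beside 7.19% and 5.98% of all genes. Day 3 had 11 that rose and 4 that fell, beside 4.18% and 3.43%. By day 7, 13 had risen and 3 had fallen, beside 3.87% and 3.85%. At day 14, 8 had risen and 0 had fallen, beside 1.24% and 0.309%. DESeq2 called 11 higher and 2 lower there, but it called more genes over the whole table, 922 (626 higher) against 260 (208 higher). The day 2 count was 9 without untreated replicate 3 and 8 in a fit on the 6 libraries compared, and the day 3 count was 8 without untreated replicate 1 and 10 without day 3 replicate 2. At day 14 it was 5 without untreated replicate 1 or 3 or day 14 replicate 3, and 5 in a fit on the 6 libraries compared. The 5 comparisons share the untreated libraries and are not independent of each other.

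In the test for any difference across the 6 groups, 22 of the 34 collagen genes passed, beside 19.7% of all genes tested. The median log2 fold change of the 34 genes against untreated at days 1, 2, 3, 7 and 14 was 0.59, 0.36, 0.93, 1.25 and 1.16. Over all genes tested the same medians were 0.05, 0.03, 0.07, 0.06 and 0.04. Scaling by library totals alone raised the median of all genes by 0.14, 0.25, 0.58, 0.67 and 0.32 at these days. It gave 7, 8, 15, 18 and 10 higher collagen genes and 4, 3, 2, 2 and 0 lower ones. Among all genes called, the higher share under that scaling was 56.8, 69.0, 91.2, 93.2 and 95.9% at these days, against 47.8, 54.6, 54.9, 50.2 and 80.0% with TMM.

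**Figure D1:**
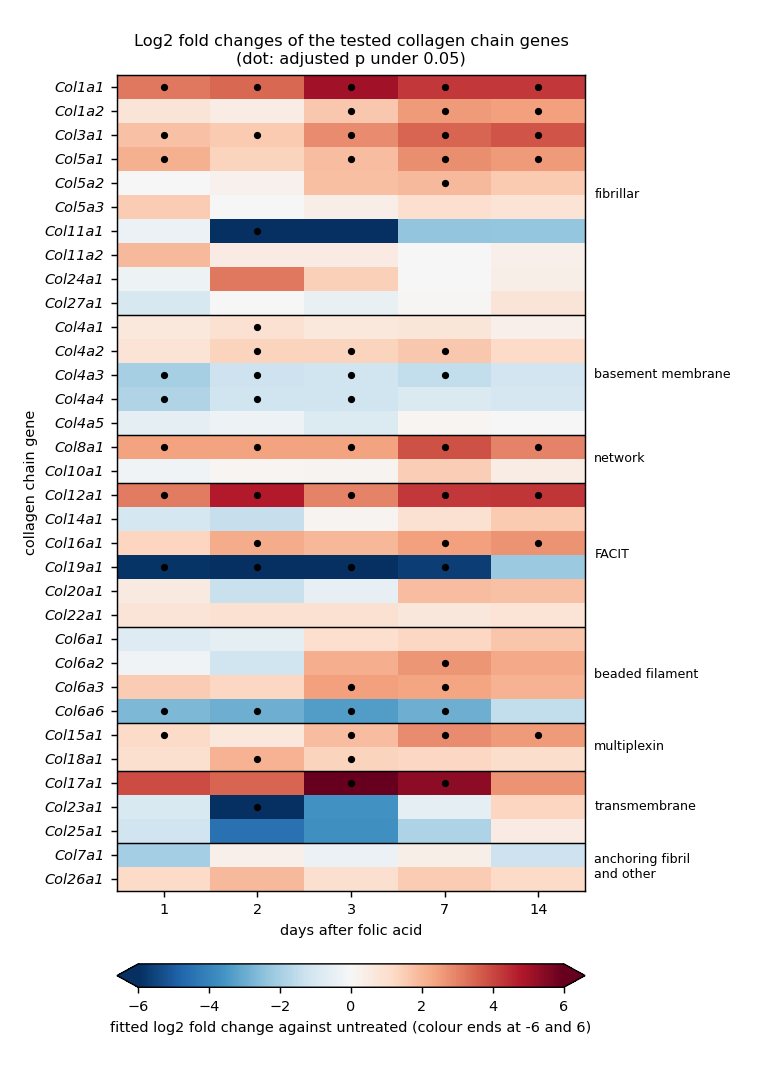
Log2 fold change against untreated kidney of the 34 tested collagen genes (rows, grouped by class) at days 1, 2, 3, 7 and 14 (columns), with a dot where the adjusted p was under 0.05 and colours that end at -6 and 6. Col1a1, Col3a1, Col8a1 and Col12a1 have dots and higher values at every time, and Col4a3, Col6a6 and Col19a1 have dots and lower values from day 1 to day 7.

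Of the 10 tested fibrillar genes, 3 rose at day 1, 2 rose and 1 fell at day 2, 4 rose at day 3, 5 at day 7 and 4 at day 14. Of all genes tested, 5.09, 7.19, 4.18, 3.87 and 1.24% rose at these times, and 5.98% fell at day 2. The median log2 fold change of the 10 fibrillar genes was 1.15, 0.47, 1.52, 1.47 and 1.20 at these times. Col1a1, the alpha1 chain of type I collagen, which supplies the bulk of scar fibrils, had 3.21, 3.66 and 1.06 CPM in the untreated libraries. It had 25.5, 20.2 and 27.3 CPM at day 1, and 20, 30.9 and 36.9 CPM at day 2. The level was 46.4, 184 and 39.0 CPM at day 3, 46.2, 76.8 and 32.0 CPM at day 7, and 35.1, 23.0 and 95.8 CPM at day 14. All 15 libraries after folic acid lay above all 3 untreated ones, and day 3 replicate 2 was the highest. The fitted rise was 9.04-fold at day 1 (log2 3.18, SE 0.63, adjusted p = 0.00276), 33.3-fold at day 3 (log2 5.06, SE 0.69, adjusted p = 0.000214) and 19.1-fold at day 14 (log2 4.25, SE 0.66, adjusted p = 0.002). Without day 3 replicate 2 the day 3 log2 fold change was 3.99, and without day 14 replicate 3 the day 14 value was 3.43.

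Col1a2, the alpha2 chain that pairs with Col1a1 in the type I trimer, started higher and was first called at day 3. Its timing was not tested against that of Col1a1. It had 12.2, 9.34 and 16 CPM in untreated kidney, 22.3, 14.3 and 26.5 CPM at day 1 and 10.5, 11.7 and 28.1 CPM at day 2, and at both times the groups overlapped. At day 3 its libraries had 27.6, 45.9 and 42.7 CPM, at day 7 81.2, 82.1 and 59.7 CPM, and at day 14 56.9, 39.2 and 109 CPM, each group above the untreated one. The log2 fold change was 0.75 at day 1 (SE 0.41, adjusted p = 0.275) and 0.43 at day 2 (SE 0.41, adjusted p = 0.544), then 1.63 at day 3 (SE 0.41, adjusted p = 0.021), 2.57 at day 7 (SE 0.43, adjusted p = 0.00116) and 2.45 at day 14 (SE 0.42, adjusted p = 0.00484). The day 3 call was lost without untreated replicate 1 (1.60) or 2 (1.44) or day 3 replicate 2 (1.49) or 3 (1.55). A fit on the 6 libraries compared ended the day 14 call (log2 2.45, adjusted p = 0.0507).

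Per kilobase of exon, the ratio of Col1a1 to Col1a2 CPM differed between groups. It was 0.499, 0.742 and 0.126 in the untreated libraries, 2.16, 2.68 and 1.95 at day 1, and 3.60, 5.02 and 2.49 at day 2. At day 3 it was 3.18, 7.59 and 1.73, at day 7 1.08, 1.77 and 1.01, and at day 14 1.17, 1.11 and 1.67. Every library after folic acid had a higher ratio than every untreated one, and no test was made on the ratio. The exon length used is the union over all annotated transcripts, 6.56 kb for Col1a1 and 12.4 kb for Col1a2, so the level of the ratio depends on the annotation while its differences between libraries do not.

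Col3a1, the single chain of type III collagen, which forms thin fibrils with type I in soft organs, rose at every time. Its untreated libraries had 6.74, 5.66 and 7.45 CPM, the day 1 libraries 31.7, 13.0 and 23.3 CPM, and the day 2 libraries 14.3, 21.8 and 22.3 CPM. Later values were 38.8, 53.0 and 49.9 CPM at day 3, 84.2, 95.6 and 41.0 CPM at day 7, and 92.8, 44.5 and 131 CPM at day 14. No library after folic acid overlapped the untreated range. The fold was 3.43 at day 1 (log2 1.78, SE 0.40, adjusted p = 0.00685), 7.15 at day 3 (log2 2.84, SE 0.42, adjusted p = 0.000385) and 13.5 at day 14 (log2 3.76, SE 0.43, adjusted p = 0.000148). The day 2 rise (log2 1.56, SE 0.40, adjusted p = 0.0145) was lost without untreated replicate 1 (1.55) or 2 (1.43). The plot of fibrillar chains by library shows the highest mean of Col1a1 at day 3, which rests on the 184 CPM of replicate 2. The highest mean of Col1a2 was at day 7 and that of Col3a1 at day 14. Without day 14 replicate 3 (131 CPM) the Col3a1 day 14 log2 fold change was 3.38, against 3.48 at day 7 with all libraries. The order of these maxima was not tested, and none of these genes passed between successive times.

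**Figure D2:**
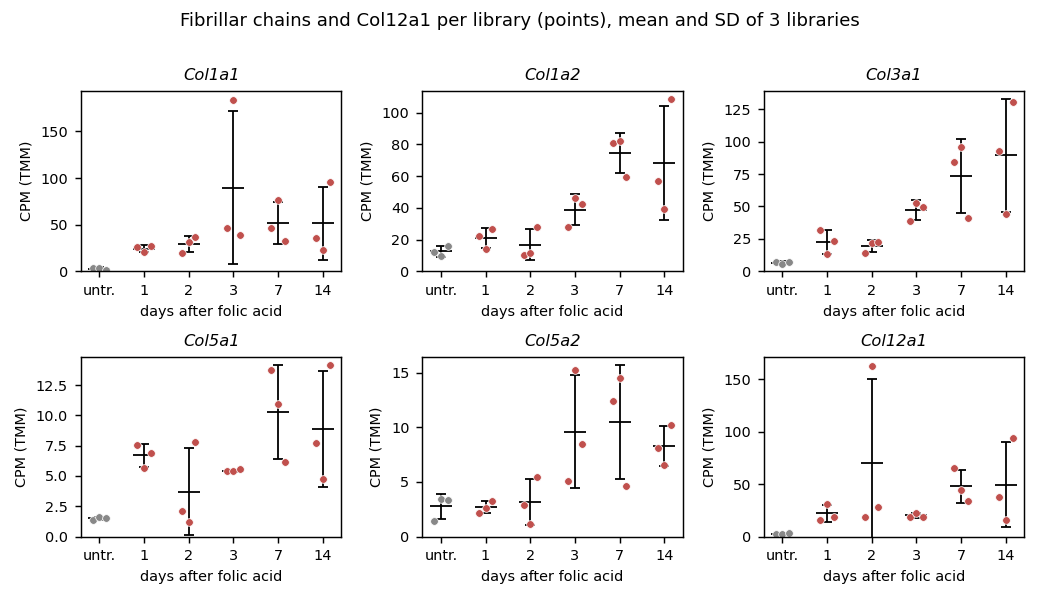
CPM with TMM scaling on linear axes from 0 (vertical) against time (horizontal, untreated and days after folic acid) for 5 fibrillar chain genes and Col12a1. Points are libraries, long bars are means and whiskers are the SD of 3 libraries. Col1a1 is above its untreated range at day 1 (20.2 to 27.3 CPM), where Col1a2 still overlaps it (14.3 to 26.5 CPM).

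Sequence just before the RefSeq start of Col1a2 and Col3a1 (GRCm38.p6, plus strand, 130 bases each) is shown because both chains join the same fibrils and both rose by day 3. Capitals mark the letters CCAAT in Col1a2 (chr6:4505488-4505617) and TATAAA in Col3a1 (chr1:45311408-45311537) on the strand shown. They begin 109 bases (Col1a2) and 117 bases (Col3a1) before the start.
Col1a2: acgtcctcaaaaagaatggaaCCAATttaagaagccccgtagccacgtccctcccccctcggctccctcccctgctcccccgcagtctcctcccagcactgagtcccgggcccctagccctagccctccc
Col3a1: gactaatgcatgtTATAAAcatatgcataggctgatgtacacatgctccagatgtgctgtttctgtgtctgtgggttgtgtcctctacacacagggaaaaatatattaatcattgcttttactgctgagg
RefSeq had a window of 300 bases (250 before and 50 from the start) for 35 of the 44 genes. In a search of both strands, 13 of these 35 held CCAAT, against 37.4% of all 32851 windows, and 22 held GGGCGG, against 35.7%. Another 5 held TATAAA (13.6% of all windows) and 1, Col6a1, held TGANTCA (7.81%). None of these motifs contains another, and a match is a description of letters only.

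Types V and XI chains start fibrils and set their width. Col5a1 had 1.36, 1.59 and 1.57 CPM in untreated kidney, 7.57, 5.69 and 6.92 at day 1, 2.14, 1.18 and 7.80 at day 2, and 5.41, 5.38 and 5.54 at day 3. It had 13.8, 11.0 and 6.14 CPM at day 7 and 7.72, 4.74 and 14.1 CPM at day 14. The groups overlapped at day 2, where the gene did not pass (log2 1.34, SE 0.55, adjusted p = 0.12). It rose 4.45-fold at day 1 (log2 2.15, SE 0.56, adjusted p = 0.0168), 3.60-fold at day 3 (log2 1.85, SE 0.55, adjusted p = 0.0469), 6.81-fold at day 7 (log2 2.77, SE 0.57, adjusted p = 0.00533) and 5.87-fold at day 14 (log2 2.55, SE 0.56, adjusted p = 0.026). The day 1 call was lost without any 1 of the untreated libraries (2.08 to 2.20) or day 1 replicate 1 (2.05), and the day 3 call without any 1 of the 6 libraries compared (1.76 to 1.88). The day 14 call was lost without any 1 untreated library (2.48 to 2.59) or day 14 replicate 3 (2.04), and in a fit on those 6 libraries (2.56, adjusted p = 0.0637). The day 3 call also ended with mitochondrial genes left out (1.83, adjusted p = 0.0508) and with a replicate block (1.84, adjusted p = 0.0533).

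Col5a2, the partner chain of Col5a1, had 1.41, 3.47 and 3.38 CPM in untreated kidney and rose at day 7, to 12.4, 14.5 and 4.61 CPM (log2 1.93, SE 0.55, adjusted p = 0.0394). The day 7 libraries lay above the untreated ones, but the call was lost without any 1 untreated library (1.62 to 2.14), day 7 replicate 1 (1.79) or 2 (1.62), or in a fit on the 6 libraries compared (1.92, adjusted p = 0.0529). At day 3 it had 5.08, 15.3 and 8.47 CPM (log2 1.79, SE 0.55, adjusted p = 0.0532), and at day 1 and day 2 the log2 fold changes were -0.03 and 0.24. Col5a3, another type V chain, had 0.163 to 1.09 CPM in untreated kidney and 0.346 to 2.84 CPM afterwards, and passed at no time.

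Col11a1, a cartilage chain, gave the only fibrillar call that was lower, and it rested on single libraries. It had 0.109, 0.880 and 10.3 CPM in the untreated libraries, 8.88, 0 and 0.0795 CPM at day 1, and 0, 0 and 0.0384 CPM at day 2. The high values are those of untreated replicate 3 and day 1 replicate 1 alone. The fitted day 2 log2 fold change was -7.75 (SE 2.5, adjusted p = 0.0471). The call was lost without untreated replicate 2 (-8.22) or 3 (-4.90), without any 1 day 2 library (-9.79 to -6.77), and with library totals alone (-7.28, adjusted p = 0.0507). Col11a2 and Col24a1 stayed at 0 to 4.50 CPM in every library and passed in no comparison.

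Col27a1, a fibrillar chain with a short helix, did not pass against untreated at any time but differed across the 6 groups (adjusted p = 0.0377). Its libraries had 30.4, 21.3 and 14.7 CPM untreated, 14.3, 10.6 and 8.91 CPM at day 1, and 35.4, 42.1 and 37.7 CPM at day 14. All day 1 values were below and all day 14 values above the untreated ones (log2 -0.98, SE 0.39, adjusted p = 0.125, and 0.80, SE 0.39, adjusted p = 0.334).

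Markers of the cells that make or surround fibrils moved over the same days. The 9 myofibroblast markers summed to 18.2 to 21.7 CPM in untreated kidney, 39.3 to 69.3 at day 1, 54.1 to 162 at day 2, 79.4 to 141 at day 3, 94.3 to 180 at day 7 and 119 to 220 at day 14. Of the 8 tested, 2, 3, 2, 4 and 3 rose at these days, beside 5.09, 7.19, 4.18, 3.87 and 1.24% of all genes tested. Fn1 (fibronectin) and Tnc (tenascin C) were among the risen genes at each. Fn1 alone had a mean of 8.68 CPM untreated and 94.3 CPM at day 7. The fold change was positive in 5 of the 8 at day 1 and day 2 (median log2 0.80 and 0.20), and in all 8 from day 3. Means of Postn were 1.02 CPM untreated, 0.481 at day 1 and 0.447 at day 2, and those of Thbs2 1.20, 0.777 and 0.896. Acta2 had 4.97, 55.3 and 13.9 CPM at day 2. Cthrc1, the marker not tested, was scarce in all groups, with at most 0.329 CPM in any library and no read at day 3. The 13 fibroblast and pericyte markers summed to 68.0 to 83.5 CPM in untreated kidney, 15.5 to 38.6 CPM at day 2 and 131 to 150 CPM at day 14. Of the 12 tested, 4 fell at day 2 (Pdgfra, Dcn, Rgs5 and Cd34), beside 5.98% of all genes, and 3 rose at day 7 (Mfap5, Cspg4 and Pdgfrb), beside 3.87%. Leukocyte markers summed to 24.5 to 51.6 CPM untreated and 193 to 329 CPM at day 7, with 5 of 8 risen there, beside the same 3.87%. The part of these cells in the collagen levels was not tested.

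Of the 6 tested FACIT genes, 1 rose and 1 fell at day 1, 2 rose and 1 fell at day 2, 1 rose and 1 fell at day 3, 2 rose and 1 fell at day 7, and 2 rose at day 14. Of all genes tested, 5.09, 7.19, 4.18, 3.87 and 1.24% rose at these times, and 5.56, 5.98, 3.43, 3.85 and 0.309% fell. Col12a1, which bridges fibrils in tissue under load, had 2.01, 2.04 and 3.63 CPM in untreated kidney and 16.2, 31.4 and 18.8 CPM at day 1. It had 18.8, 163 and 27.8 CPM at day 2 and 19.0, 22.6 and 18.7 CPM at day 3. The level was 65.1, 44.6 and 33.9 CPM at day 7 and 37.3, 16 and 94.4 CPM at day 14. Every library after folic acid was above the untreated range, and day 2 replicate 2, the shallowest library, was far above the rest. The log2 fold change was 3.12 at day 1 (SE 0.71, adjusted p = 0.00702), 4.77 at day 2 (SE 0.76, adjusted p = 0.000388), 2.98 at day 3 (SE 0.70, adjusted p = 0.0141), 4.24 at day 7 (SE 0.74, adjusted p = 0.00171) and 4.28 at day 14 (SE 0.74, adjusted p = 0.00484). Without day 2 replicate 2 the day 2 value was 3.19, and without day 14 replicate 3 the day 14 value was 3.39. The day 3 call was lost without untreated replicate 1 (2.83) or 2 (2.82).

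Col16a1, a FACIT of many connective tissues, was scarce. Its libraries had 0.217, 0.761 and 0.251 CPM untreated, 2.79, 1.52 and 1.77 CPM at day 2, 3.35, 2.35 and 1.39 CPM at day 7, and 1.91, 1.95 and 4.44 CPM at day 14. It rose at day 2 (log2 2.25, SE 0.66, adjusted p = 0.0291), day 7 (log2 2.45, SE 0.66, adjusted p = 0.028) and day 14 (log2 2.67, SE 0.66, adjusted p = 0.0483), with no overlap between the groups, and did not pass the test across the 6 groups (adjusted p = 0.0561). The day 2 call was lost without untreated replicate 1 (1.94) or 3 (1.99) or day 2 replicate 1 (1.93), and the day 7 call without untreated replicate 1 (2.15) or 3 (2.20) or day 7 replicate 1 (2.11) or 2 (2.45). The day 14 call was lost without any 1 untreated library (2.37 to 3.53) or day 14 replicate 1 (2.87) or 3 (2.15), and with a replicate block (2.77, adjusted p = 0.0747). Without untreated replicate 2 the value was 3.10 at day 2 and 3.31 at day 7. A fit on the 6 libraries compared ended all 3 calls (adjusted p = 0.0828, 0.0515 and 0.131).

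Col19a1, a FACIT first known from muscle and brain, went the other way. It had 2.56, 3.50 and 1.44 CPM in untreated kidney, and 0 to 0.0875 CPM in the 12 libraries from day 1 to day 7. At day 14 it had 1.21, 0.405 and 0 CPM, still below each untreated library. The log2 fold change was -5.87 at day 1 (SE 1.4, adjusted p = 0.00893), -6.44 at day 2 (SE 1.5, adjusted p = 0.00848), -7.39 at day 3 (SE 1.5, adjusted p = 0.00662), -5.65 at day 7 (SE 1.4, adjusted p = 0.0151) and -2.21 at day 14 (SE 1.1, adjusted p = 0.353). These levels are near the limit that a count of 0 allows, so the size of the fall is imprecise: it ranged from -6.61 to -5.21 at day 1 (without day 1 replicate 1 or 3) and was -9.20 at day 3 without day 3 replicate 1. The day 7 call was lost without untreated replicate 2 (-5.32) or any 1 day 7 library (-6.06 to -5.11).

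Col14a1, a FACIT that limits fibril growth, was not called against untreated at any time but differed across the 6 groups (adjusted p = 0.0049). It had 7.18, 5.11 and 5.26 CPM untreated, 1.05, 3.71 and 3.54 CPM at day 1 and 1.79, 0.676 and 3.96 CPM at day 2, all below the untreated libraries. By day 14 it had 13.7, 9.53 and 28.3 CPM, all above them. Col20a1 also differed across the groups (adjusted p = 0.0345), between 0 and 8.72 CPM, and Col22a1 stayed at 0.877 to 3.72 CPM and passed no test.

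Col8a1, which builds the hexagonal lattice of type VIII collagen made by vessels and mesangium, rose at every time and was the 1 called gene of 2 tested network genes. Of all genes tested, 5.09, 7.19, 4.18, 3.87 and 1.24% rose at these times. The Col8a1 libraries had 1.09, 3.02 and 1.19 CPM untreated, 15, 5.04 and 8.93 CPM at day 1, 9.50, 3.89 and 15.3 CPM at day 2, and 9.12, 10.5 and 9.18 CPM at day 3. They had 43.2, 18.7 and 14.3 CPM at day 7 and 8.59, 13.4 and 20.7 CPM at day 14, and no library overlapped the untreated group. The log2 fold change was 2.41 at day 1 (SE 0.57, adjusted p = 0.01), 2.42 at day 2 (SE 0.57, adjusted p = 0.00911), 2.41 at day 3 (SE 0.57, adjusted p = 0.0148), 3.81 at day 7 (SE 0.60, adjusted p = 0.000858) and 2.97 at day 14 (SE 0.58, adjusted p = 0.0117). The call was lost without untreated replicate 1 or 3 at day 1 (2.15 and 2.19), day 2 (2.16 and 2.19), day 3 (2.14 and 2.17) and day 14 (2.71 and 2.75), without day 1 replicate 1 at day 1 (1.94) and without day 14 replicate 3 at day 14 (2.60). Untreated replicate 2 was the highest untreated library, and without it the 5 values were 3.07, 3.07, 3.06, 4.47 and 3.63. Without day 7 replicate 1 the day 7 value was 3.18. A fit on the 6 libraries compared ended the calls at day 2 (2.40, adjusted p = 0.0513) and day 14 (2.99, adjusted p = 0.056). Col10a1, a cartilage lattice chain, had 1.69 to 2.99 CPM untreated and 0.169 to 18.6 CPM afterwards, where day 7 replicate 2 alone exceeded 6.30 CPM, and it passed no test.

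**Figure D3:**
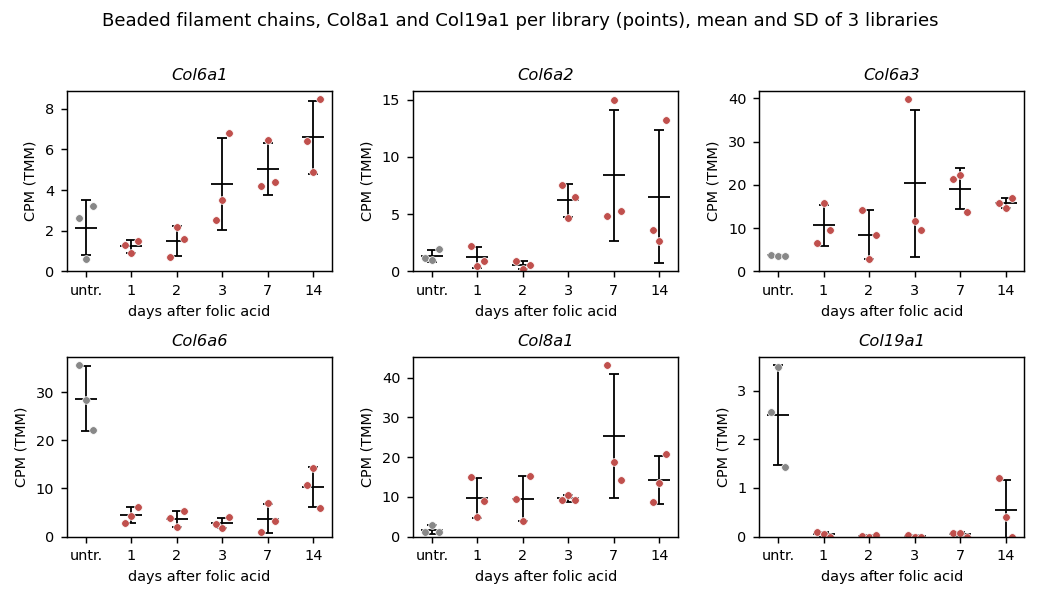
CPM with TMM scaling on linear axes from 0 (vertical) against time (horizontal, untreated and days after folic acid) for the beaded filament genes Col6a1, Col6a2, Col6a3 and Col6a6, the network gene Col8a1 and the FACIT gene Col19a1. Points are libraries, long bars are means and whiskers are the SD of 3 libraries. Col6a6 and Col19a1 lie below their untreated range from day 1 while Col8a1 lies above its untreated range at every time.

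Of the 5 tested basement membrane genes, 2 fell at day 1, 2 rose and 2 fell at day 2, 1 rose and 2 fell at day 3, and 1 rose and 1 fell at day 7. None passed at day 14, where 3 had an unadjusted p under 0.05, beside 2629 of all 16824 genes tested. Of all genes tested, 5.09, 7.19, 4.18, 3.87 and 1.24% rose at these times, and 5.56, 5.98, 3.43, 3.85 and 0.309% fell. Col4a2, of the general trimer, had 37.8, 38.3 and 30.8 CPM in untreated kidney, 58.7, 60.9 and 70.3 CPM at day 1, 59.9, 134 and 75.7 CPM at day 2 and 106, 78.2 and 89.1 CPM at day 3. It had 134, 106 and 83.4 CPM at day 7 and 68.7, 63.1 and 109 CPM at day 14. All later libraries were above the untreated ones. It rose 2.51-fold at day 2 (log2 1.33, SE 0.30, adjusted p = 0.00584), 2.56-fold at day 3 (log2 1.35, SE 0.30, adjusted p = 0.00881) and 3.02-fold at day 7 (log2 1.59, SE 0.30, adjusted p = 0.00278). At day 1 (log2 0.83, SE 0.29, adjusted p = 0.0798) and day 14 (log2 1.17, SE 0.29, adjusted p = 0.0526) it did not pass, and the day 2 call was lost in a fit on the 6 libraries compared (1.31, adjusted p = 0.0548). Without day 2 replicate 2 the day 2 log2 value was 0.92.

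Col4a1, the partner of Col4a2, varied more among untreated libraries, with 96.2, 50.7 and 52.7 CPM. At day 2 it had 108, 170 and 101 CPM, all above the untreated ones, and rose 1.89-fold (log2 0.92, SE 0.29, adjusted p = 0.045). At the other times it had 66.7 to 131 CPM and log2 fold changes of 0.32 to 0.73 that did not pass. The day 2 call was lost without untreated replicate 2 (0.74) or 3 (0.75) or day 2 replicate 1 (1.02) or 2 (0.64), and without untreated replicate 1 the value was 1.26. It was also lost with RLE scaling (0.92, adjusted p = 0.051), without the low-count filter (0.90, adjusted p = 0.0529), with a replicate block (0.90, adjusted p = 0.074) and in a fit on the 6 libraries compared (0.90, adjusted p = 0.164). The test across the 6 groups did not call it either (adjusted p = 0.185).

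Col4a3 and Col4a4 fell. Col4a3 had 221, 185 and 216 CPM in untreated kidney, the highest level per kilobase of the 44 genes there (20.8 CPM per kb, mean of 3 libraries). It had 64.7, 34.4 and 57.2 CPM at day 1, 77.1, 80.1 and 109 CPM at day 2 and 122, 43.3 and 103 CPM at day 3. At day 7 it had 63.9, 75.3 and 80.9 CPM, and at day 14 it had 116, 77.6 and 83.1 CPM, so every library after folic acid was below every untreated one. It fell 3.98-fold at day 1 (log2 -1.99, SE 0.33, adjusted p = 0.000563), 2.34-fold at day 2 (log2 -1.22, SE 0.32, adjusted p = 0.0159), 2.32-fold at day 3 (log2 -1.21, SE 0.32, adjusted p = 0.0263) and 2.83-fold at day 7 (log2 -1.50, SE 0.32, adjusted p = 0.00775), and at day 14 the log2 fold change was -1.17 (SE 0.32, adjusted p = 0.0722). The day 2 call was lost without day 2 replicate 1 (-1.13) or 2 (-1.17), and the day 3 call without untreated replicate 1 (-1.18) or 3 (-1.21) or day 3 replicate 2 (-0.88) and in a fit on those 6 libraries (-1.24, adjusted p = 0.06). With library totals alone the calls at day 2 (-0.97, adjusted p = 0.0677), day 3 (-0.65, adjusted p = 0.203) and day 7 (-0.82, adjusted p = 0.105) were lost. Of its exon bases 5.65% overlap C430014B12Rik on the other strand, and whether counting used strand is not given in the sources used here.

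Col4a4, its partner, had 99.9, 92.4 and 71.3 CPM untreated and 36.6, 18.2 and 20.4 CPM at day 1. It had 37.9, 31.4 and 44.4 CPM at day 2, 50.1, 26.3 and 39.9 CPM at day 3, 51.3, 44.7 and 50.9 CPM at day 7 and 43.4, 43.9 and 44.9 CPM at day 14. No library after folic acid reached the untreated range. It fell 3.51-fold at day 1 (log2 -1.81, SE 0.29, adjusted p = 0.000451), 2.31-fold at day 2 (log2 -1.21, SE 0.29, adjusted p = 0.00911) and 2.27-fold at day 3 (log2 -1.18, SE 0.29, adjusted p = 0.0164). At day 7 and day 14 the log2 fold changes were -0.84 (SE 0.28, adjusted p = 0.078) and -1.0 (SE 0.29, adjusted p = 0.0851). The day 3 call was lost without untreated replicate 1 (-1.10) or 2 (-1.16) or day 3 replicate 2 (-0.96), and with library totals alone the calls at day 2 (-0.96, adjusted p = 0.0603) and day 3 (-0.62, adjusted p = 0.203) were lost. Col4a5, the third chain of that trimer, had 15.2, 16.9 and 17.6 CPM untreated and 7.20 to 20.8 CPM afterwards and passed no test. Its log2 fold change was lowest at day 3 (-0.81, SE 0.32, adjusted p = 0.139).

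The ratio of Col4a1 to Col4a3, per kilobase, sets a chain of the general trimer against one of the mature trimer and was not tested. It was 0.580, 0.367 and 0.326 in untreated kidney, 1.77, 4.90 and 2.33 at day 1, 1.86, 2.84 and 1.24 at day 2 and 1.08, 2.98 and 1.51 at day 3. At day 7 it was 2.18, 2.32 and 1.58, and at day 14 it was 0.769, 1.20 and 1.81. All 15 libraries after folic acid were above the 3 untreated ones. Col4a3 to Col4a4 stayed within 1.32 to 3.22 in all 18 libraries, while Col4a3 to Col4a5 was 7.38 to 9.80 untreated and 2.41 to 7.33 afterwards.

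**Figure D4:**
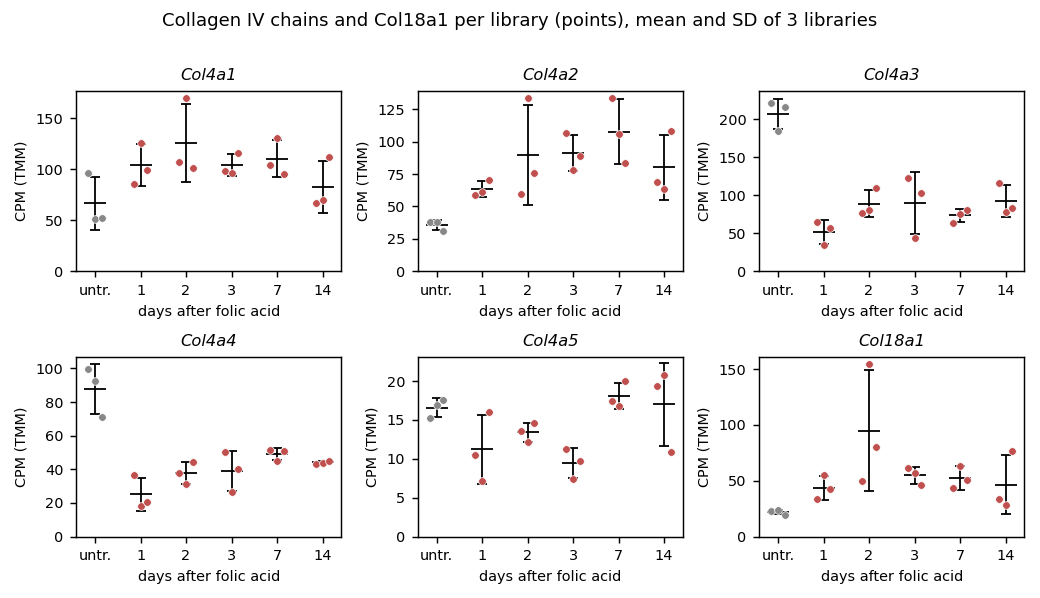
CPM with TMM scaling on linear axes from 0 (vertical) against time (horizontal, untreated and days after folic acid) for the 5 tested type IV chain genes and Col18a1. Points are libraries, long bars are means and whiskers are the SD of 3 libraries. Col4a3 and Col4a4 lie below their untreated range at every time, and Col4a2 and Col18a1 above it.

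The type IV genes lie head to head in pairs (GENCODE M21, GRCm38). The starts of Col4a1 and Col4a2 on chromosome 8 share 22 bases, and those of Col4a5 and Col4a6 on chromosome X are 1308 bases apart. Col4a3 (plus strand) and Col4a4 (minus strand) start 71 bases apart on chromosome 1, and the stretch between them (chr1:82586850-82586920, plus strand, GRCm38.p6) is shown because this pair fell together. Capitals mark its 2 CG sites, and 69% of its bases are G or C.
Col4a3-Col4a4: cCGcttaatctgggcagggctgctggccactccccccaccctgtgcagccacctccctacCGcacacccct
Across the 18 libraries the log2 CPM of Col4a3 and Col4a4 had a Pearson correlation of 0.88, of Col4a1 and Col4a2 0.72, and of Col4a1 and Col4a3 -0.54. These are descriptions over libraries that share their depth and group differences.

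Podocytes make the alpha3, alpha4 and alpha5 trimer of the glomerulus, and podocyte and tubule markers were lower on some of the same days. The 8 podocyte markers summed to 101 to 154 CPM untreated, 82.4 to 117 at day 1, 45.6 to 65.1 at day 2, 69.8 to 84.9 at day 3, 97.7 to 101 at day 7 and 96.0 to 133 at day 14. Of the 8, 1 fell at day 1 (Tcf21), 3 at day 2 (with Tcf21 and Podxl among them), 1 at day 3 (Podxl) and 1 at day 7 (Podxl), beside 5.56, 5.98, 3.43 and 3.85% of all genes that fell at these times. The 8 tubule markers summed to 4577 to 4910 CPM untreated, 766 to 1031 at day 1 and 2536 to 3778 at day 14, and 7 of 8 fell at day 1. The 8 endothelial markers summed to 80.5 to 152 CPM untreated and 21.2 to 34.9 at day 2, where 5 of 8 fell. The part of these cells in the type IV levels was not tested.

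Type VI collagen forms beaded filaments around cells from an alpha1 and alpha2 chain and 1 longer chain, such as alpha3 or alpha6. All 4 tested genes differed across the 6 groups, beside the 19.7% of all genes given above. Col6a6 had 35.7, 28.3 and 22.1 CPM in untreated kidney, 2.84, 4.34 and 6.16 at day 1, 3.83, 2.03 and 5.27 at day 2 and 2.52, 1.86 and 4.04 at day 3. It had 0.954, 7.02 and 3.26 CPM at day 7 and 10.8, 14.3 and 6.03 CPM at day 14, all below the untreated range. It fell 6.43-fold at day 1 (log2 -2.68, SE 0.58, adjusted p = 0.00477), 7.55-fold at day 2 (log2 -2.92, SE 0.59, adjusted p = 0.00279), 10.2-fold at day 3 (log2 -3.35, SE 0.59, adjusted p = 0.00176) and 7.67-fold at day 7 (log2 -2.94, SE 0.58, adjusted p = 0.00429). At day 14 its log2 fold change was -1.47 (SE 0.55, adjusted p = 0.187), and without day 7 replicate 2 the day 7 value was -3.77.

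Col6a3, the other long chain, had 3.81, 3.59 and 3.63 CPM in untreated kidney, 39.8, 11.6 and 9.50 CPM at day 3, 21.2, 22.3 and 13.6 CPM at day 7 and 15.7, 14.7 and 16.9 CPM at day 14, with no overlap. Its day 1 libraries, with 6.56, 15.9 and 9.64 CPM, also lay above the untreated ones. At day 2 it had 14.1, 2.87 and 8.49 CPM, and it did not pass at day 1 or day 2. It rose 5.52-fold at day 3 (log2 2.46, SE 0.55, adjusted p = 0.0101) and 5.18-fold at day 7 (log2 2.37, SE 0.55, adjusted p = 0.012), and at day 14 the log2 fold change was 2.10 (SE 0.54, adjusted p = 0.0576). The day 3 call was lost without day 3 replicate 1 (1.52) and the day 7 call without untreated replicate 2 (2.35). Per kilobase, the ratio of Col6a3 to Col6a6 was 0.0816, 0.0971 and 0.126 untreated and 0.788 to 17.1 afterwards.

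Col6a2 had 1.20, 0.951 and 1.94 CPM untreated, 0.856, 0.169 and 0.538 CPM at day 2, 7.50, 4.66 and 6.45 CPM at day 3 and 4.87, 15 and 5.27 CPM at day 7. It rose 6.20-fold at day 7 (log2 2.63, SE 0.70, adjusted p = 0.0263), a call lost without any 1 untreated library (2.42 to 2.96) or day 7 replicate 2 (1.91). Col6a1 was not called against untreated at any time but differed across the groups (adjusted p = 0.0151), with 2.61, 0.618 and 3.19 CPM untreated and 6.42, 4.91 and 8.48 CPM at day 14, which lay above all untreated values.

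Multiplexins carry sugar chains and lie in basement membranes, and Col18a1 is the source of the fragment endostatin. Col15a1 had 3.32, 3.35 and 5.83 CPM untreated, 10.3, 10.8 and 6.04 CPM at day 1, 4.24, 6.25 and 8.76 CPM at day 2 and 14.4, 12.2 and 18.1 CPM at day 3. It had 26.6, 35.1 and 26.3 CPM at day 7 and 21.9, 20.5 and 31.3 CPM at day 14, and overlapped the untreated group at day 2 only. It rose 2.18-fold at day 1 (log2 1.13, SE 0.35, adjusted p = 0.047), 3.60-fold at day 3 (log2 1.85, SE 0.36, adjusted p = 0.00379), 7.07-fold at day 7 (log2 2.82, SE 0.37, adjusted p = 0.000196) and 5.93-fold at day 14 (log2 2.57, SE 0.37, adjusted p = 0.000974). The day 1 call was lost without untreated replicate 1 (0.99) or 2 (0.99) or day 1 replicate 1 (1.02) or 2 (0.98). It was lost too with RLE scaling (1.07, adjusted p = 0.0632), with mitochondrial genes left out (1.10, adjusted p = 0.0551), without the low-count filter (1.16, adjusted p = 0.067) and in a fit on the 6 libraries compared (1.08, adjusted p = 0.116).

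Col18a1 had 22.7, 23.7 and 19.7 CPM untreated, 33.3, 54.8 and 42.4 CPM at day 1, 49.4, 155 and 80.7 CPM at day 2 and 61.1, 57.3 and 46.5 CPM at day 3, all above the untreated range, as were 43.1, 63.6 and 50.5 CPM at day 7 and 34.0, 28.3 and 76.7 CPM at day 14. It rose 4.30-fold at day 2 (log2 2.10, SE 0.40, adjusted p = 0.00175) and 2.50-fold at day 3 (log2 1.32, SE 0.39, adjusted p = 0.0437). Without day 2 replicate 2, the shallowest library, the day 2 log2 value was 1.55. The day 3 call was lost without any 1 of the 6 libraries compared (1.22 to 1.43) and with RLE scaling (1.28, adjusted p = 0.0538). At day 7 the log2 fold change was 1.25 (SE 0.39, adjusted p = 0.0544).

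Among the transmembrane genes, Col17a1, a hemidesmosome collagen of epithelium, had 0, 0.0476 and 0.0626 CPM untreated, 1.06, 5.76 and 2.36 CPM at day 3 and 1.41, 2.17 and 1.67 CPM at day 7. At day 1 it had 0.0437, 1.21 and 0.636 CPM and at day 2 0.897, 0.507 and 0 CPM. Its day 14 libraries had 0.13, 0.203 and 0.489 CPM, and it did not pass at day 1, day 2 or day 14. It rose at day 3 (log2 6.17, SE 1.4, adjusted p = 0.00924) and day 7 (log2 5.37, SE 1.3, adjusted p = 0.0181), with no overlap at either time. Without day 3 replicate 2 the day 3 value was 5.35, and the day 7 call was lost without any 1 untreated library (4.94 to 5.69). Col23a1 had 0.163, 0.285 and 0.564 CPM untreated and no read at day 2, at least 8.48-fold lower when 3 counts in the whole group are taken as the floor (adjusted p = 0.0276). That call was lost without untreated replicate 2 (-6.39) or 3 (-5.82) or any 1 day 2 library (-6.39 to -6.26). Col25a1, Col26a1 and Col7a1 stayed between 0 and 4.23 CPM and passed no test.

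Successive times were compared to ask when chains changed. No collagen gene passed between day 1 and day 2, between day 2 and day 3, between day 3 and day 7, or between day 7 and day 14, in the edgeR test, where 0.0594, 0.25, 0.0178 and 0.0178% of all genes passed. At an unadjusted p under 0.05 there were 11, 11, 6 and 3 of 34, beside 2252, 2600, 1698 and 1588 of all 16824 genes tested. DESeq2 called 1, 2, 0 and 0 collagen genes, beside 515, 724, 217 and 147 genes over the whole table. The smallest adjusted p was that of Col6a2 between day 2 and day 3 (log2 3.39, SE 0.74, adjusted p = 0.0612). Col15a1 (log2 1.22, adjusted p = 0.111), Col3a1 (log2 1.28, adjusted p = 0.124), Col1a2 (log2 1.20, adjusted p = 0.161) and Col1a1 (log2 1.62, adjusted p = 0.186) also had higher fitted values at day 3 than at day 2.

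The make-up of the collagen reads was followed as the share of each class in the reads of all 44 genes, which needs no scaling between libraries and was not tested. Basement membrane chains held 76.2, 74.7 and 74.9% in the untreated libraries, 54.5 to 56.1% at day 1, 50 to 60.4% at day 2, 35.0 to 55.4% at day 3, 40.1 to 49.7% at day 7 and 33.5 to 47.6% at day 14. Fibrillar chains held 9.08, 9.17 and 10.7% untreated, 15 to 24.2% at day 1, 9.26 to 20.2% at day 2, 19.6 to 45.0% at day 3, 24.2 to 32.2% at day 7 and 28.1 to 37.2% at day 14. All 15 libraries after folic acid were below the untreated range for basement membrane chains, and all but day 2 replicate 2 were above it for fibrillar chains. FACIT chains went from 2.47 ± 0.191% (mean ± SD, n = 3) untreated to 8.88 ± 3.13% at day 14, and network chains from 0.821 ± 0.317 to 2.25 ± 0.529%. At day 2 the FACIT share was 5.22 and 5.48% in replicates 1 and 3, against 19.8% in replicate 2.

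In CPM, the sum over all 44 genes was 550 ± 58.6 untreated (mean ± SD, n = 3), and at days 1, 2, 3, 7 and 14 it was 464 ± 9.71, 662 ± 183, 693 ± 29.6, 828 ± 141 and 791 ± 257. The fibrillar sum was 52.8 ± 5.01 CPM untreated and 267 ± 121 CPM at day 14, and the basement membrane sum was 414 ± 49.0 and 317 ± 42.4 CPM. At day 1 the basement membrane sum, 247 to 264 CPM, lay below all untreated values (383 to 471 CPM) while the fibrillar sum, 68.1 to 113 CPM, lay above them (47.1 to 56.1 CPM).

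**Figure D5:**
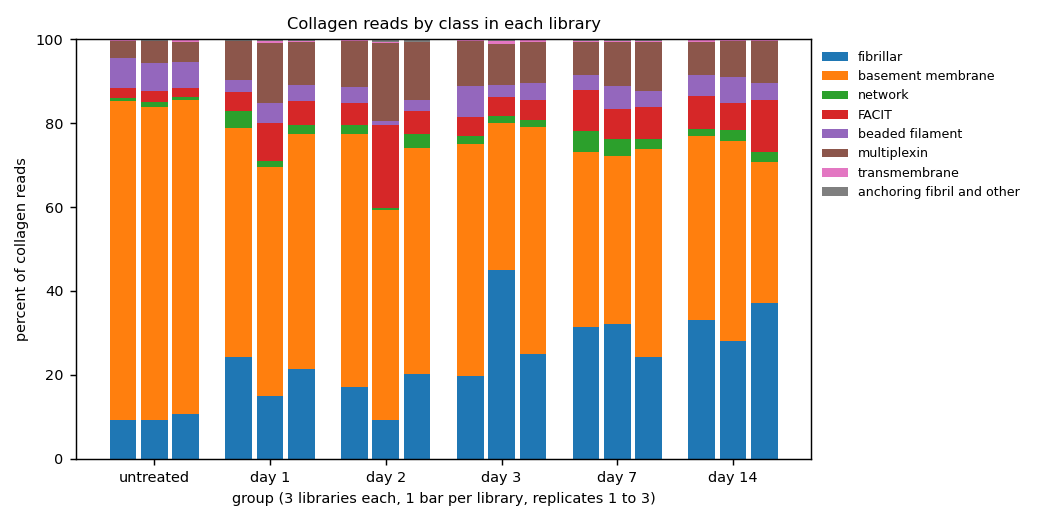
Share of all collagen reads (vertical axis, percent) held by each class in each of the 18 libraries (horizontal axis, by group and replicate), as stacked bars from 0. The basement membrane share goes from 74.7 to 76.2% in untreated kidney to 33.5 to 47.6% at day 14, and the fibrillar share from 9.08 to 10.7% to 28.1 to 37.2%.

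Other genes needed to make, mature and sense collagen were followed as 3 lists. Of 21 tested genes for folding and modification in the endoplasmic reticulum, 1 rose at day 1, 1 rose and 1 fell at day 2, and 1 fell at day 3. At day 7, 0 passed and 5 had an unadjusted p under 0.05, beside 3663 of all 16824 genes tested. At day 14, 1 fell. Of all genes 5.09, 7.19, 4.18, 3.87 and 1.24% rose and 5.56, 5.98, 3.43, 3.85 and 0.309% fell at the 5 times, so the list was at or below these shares at day 1 and day 2. The list's median log2 fold changes were -0.30, -0.56, -0.45, -0.13 and -0.03. P4ha2, a prolyl hydroxylase subunit that stabilises the helix, had 4.51, 3.80 and 9.08 CPM untreated and 16.8, 12.3 and 11.6 CPM at day 1 (log2 1.23, SE 0.37, adjusted p = 0.0375). Plod3, a lysyl hydroxylase, had 5.98, 5.45 and 4.70 CPM untreated and 10.5, 88.2 and 26.0 CPM at day 2 (log2 2.94, SE 0.61, adjusted p = 0.00368, and 1.75 without day 2 replicate 2). P3h3 fell at day 2 (log2 -1.84, SE 0.59, adjusted p = 0.0455), Colgalt2, which adds galactose to hydroxylysine, at day 3 (log2 -3.02, SE 0.79, adjusted p = 0.0247) and Plod2 at day 14 (log2 -1.43, SE 0.30, adjusted p = 0.0172). Leaving out single libraries ended the calls of P4ha2 (all but untreated replicate 3, 0.99 to 1.34), P3h3 (untreated replicate 2 or 3, day 2 replicate 1 or 2, -1.88 to -1.50), Colgalt2 (untreated replicate 2 or 3, day 3 replicate 1 or 3, -2.99 to -2.63) and Plod2 (untreated replicate 2 or day 14 replicate 3, -1.03 and -1.38). P4ha2 was 1.70 without untreated replicate 3, P3h3 -2.50 without day 2 replicate 3 and Colgalt2 -3.95 without day 3 replicate 2. With library totals alone the calls of P3h3 (-1.51, adjusted p = 0.113), Colgalt2 (-2.42, adjusted p = 0.0513) and Plod2 (-1.14, adjusted p = 0.0882) were lost. A fit on the 6 libraries compared ended those of P4ha2 (adjusted p = 0.0913), P3h3 (adjusted p = 0.106) and Plod2 (adjusted p = 0.121). Without the low-count filter P4ha2 (adjusted p = 0.0736) and P3h3 (adjusted p = 0.0563) were lost, and P3h3 with a replicate block too (adjusted p = 0.0509).

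Of 13 tested genes for cleavage of propeptides and cross-linking, 1 rose and 1 fell at each of day 1 and day 2. Of all genes 5.09 and 7.19% rose and 5.56 and 5.98% fell at these 2 times, so the list was near these shares. Later, 2 rose at day 3, 4 at day 7 and 3 at day 14, beside 4.18, 3.87 and 1.24% of all genes that rose at these last 3 times. Sparc, a collagen-binding matrix protein, had 25.0, 30.2 and 24.1 CPM untreated, 55.7, 46.6 and 62.2 CPM at day 1 and 103, 76.4 and 107 CPM at day 14, and rose 3.61-fold by then (log2 1.85, SE 0.31, adjusted p = 0.00431). Lox, the lysyl oxidase that cross-links fibrils, had 0.979, 1.64 and 0.689 CPM untreated, 25.3, 5.02 and 5.62 CPM at day 7 and 8.11, 5.51 and 15.4 CPM at day 14. It rose 10.6-fold at day 7 (log2 3.41, SE 0.68, adjusted p = 0.00461), and the value was 2.24 without day 7 replicate 1. At day 3 (log2 2.32, SE 0.66, adjusted p = 0.0369) and day 14 (log2 3.10, SE 0.68, adjusted p = 0.0235) Lox also rose, but without any 1 untreated library (up to 2.73 at day 3 and 3.52 at day 14), day 3 replicate 2 (1.70) or day 14 replicate 3 (2.59) those calls were lost. A replicate block ended the day 3 call of Lox as well (2.33, adjusted p = 0.057), and a fit on the 6 libraries compared the day 14 call (3.11, adjusted p = 0.0519).

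Loxl2 (log2 1.89, SE 0.45, adjusted p = 0.0138) and Adamts2, the propeptide-cleaving protease (log2 1.52, SE 0.43, adjusted p = 0.0377), rose at day 7. The Loxl2 call was lost without untreated replicate 2 (1.68) or 3 (1.87) or day 7 replicate 1 (1.64), and the Adamts2 call without any 1 untreated library (1.37 to 1.70) or day 7 replicate 1 (1.56) or 3 (1.05). The Adamts2 call was also lost with a replicate block (1.44, adjusted p = 0.0609), without the low-count filter (1.52, adjusted p = 0.0706) and in a fit on the 6 libraries compared (adjusted p = 0.0766). Loxl4 at day 14 rested on 1 library, with 23.6, 1.34 and 0.326 CPM against 0.0544, 0.594 and 0.125 CPM untreated (log2 4.86, SE 1.2, adjusted p = 0.0483). It was 1.56 without day 14 replicate 1, and its call was also lost without any 1 untreated library (4.42 to 6.50), with a replicate block (4.53, adjusted p = 0.129) and in a fit on the 6 libraries compared (4.81, adjusted p = 0.193). Pcolce, which speeds propeptide cleavage, fell at day 1 (log2 -1.58, SE 0.50, adjusted p = 0.0478) and day 2 (log2 -1.77, SE 0.51, adjusted p = 0.0253), but 45.7 CPM in untreated replicate 3 stood against 7.67 and 13.2 in the other untreated libraries, and without that library the values were -0.51 and -0.72. Both Pcolce calls were lost as well without any 1 day 1 (-1.81 to -1.44) or day 2 (-1.83 to -1.71) library, with library totals alone (adjusted p = 0.0844 and 0.0558) and in a fit on the 6 libraries compared (adjusted p = 0.117 and 0.12), and the Pcolce day 1 call with a replicate block (adjusted p = 0.0859). Sparc rose at day 1, day 2 and day 3 by log2 values of 1.05, 0.98 and 1.02, and these calls did not hold in all fits that left out 1 library (0.95 to 1.16, 0.56 to 1.17 and 0.87 to 1.12). Library totals alone ended the Sparc call at day 1 (adjusted p = 0.0558), a replicate block those at day 2 (adjusted p = 0.0587) and day 3 (adjusted p = 0.0636), a fit on the 6 libraries compared that at day 2 (adjusted p = 0.126), and RLE scaling (adjusted p = 0.0559) and leaving out mitochondrial genes (adjusted p = 0.0526) that at day 3. Of the 24 calls in the 3 lists, 10 held under all the other alternatives tried and 6 held in the leave-one-out fits as well.

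Of 8 tested collagen receptors and uptake genes, 1 rose at each of days 1, 2, 3 and 14 and 2 rose at day 7, beside 5.09, 7.19, 4.18, 1.24 and 3.87% of all genes. Itgb1, the beta chain of the collagen-binding integrins, had 38.1, 42.6 and 54.9 CPM untreated and 143, 118 and 102 CPM at day 1 (log2 1.42, SE 0.22, adjusted p = 0.000347), and rose at day 2 as well (log2 1.05, SE 0.22, adjusted p = 0.00368). Mrc2, which takes up collagen fragments, had 4.46, 2.47 and 2.25 CPM untreated and rose to 11.7, 14.2 and 9.34 CPM at day 3 (log2 1.94, SE 0.47, adjusted p = 0.0162). At day 7 it had 14.3, 13.0 and 10.1 CPM (log2 2.03, SE 0.47, adjusted p = 0.0122) and at day 14 12.4, 8.80 and 18.7 CPM (log2 2.12, SE 0.47, adjusted p = 0.0266). Ddr2, a receptor kinase for fibrillar collagen, rose at day 7 from 2.23, 3.52 and 1.88 to 11.0, 16.4 and 7.74 CPM (log2 2.19, SE 0.63, adjusted p = 0.0393). The Mrc2 day 14 call was lost in a fit on the 6 libraries compared (2.13, adjusted p = 0.0792). Single calls of Mrc2 were lost without untreated replicate 2 or 3 (1.75 to 1.97), day 3 replicate 2 (1.78) or day 14 replicate 3 (1.80), and the Ddr2 call without any 1 untreated library (2.01 to 2.50) or day 7 replicate 1 (2.23) or 2 (1.86).

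Among all genes tested, those most like Col1a1 across the 18 libraries in log2 CPM were Cd44 (Pearson correlation 0.94), Vcam1 (0.93), Cyp4v3 (0.91), Abcc3 (0.90) and Vim (0.90). The 5 most like Col4a1 were Clk2 (0.88), Spsb1 (0.87), Hjurp (0.86), Myo9b (0.84) and Bak1 (0.84). Within the family, Col1a2 correlated with Col15a1 at 0.92 and with Col3a1 at 0.92, and Col6a6 with Col19a1 at 0.83. These values describe libraries that share their group differences and depth.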

How the data were processed

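RNA-seq counts came from 18 libraries of mouse kidney tissue, 3 each from untreated mice and from mice at each of 5 times after folic acid. Per the labels' protocols, total RNA was extracted with TRIzol, and 10 ng was amplified by the NuGEN SPIA method. The deposited counts are raw reads per Ensembl gene, and the submitters' processing notes name cutadapt, TopHat2 2.07, HTSeq, DESeq and build NCBIM37. Aligner options and the strand setting are not given in the sources used here, and the authors' normalized table was not used. Symbols were matched to 32919 of 37991 identifiers through GENCODE M21 (GRCm38), a later build, and 5072 had none.

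The 5 tallies of unassigned reads (34.5 to 51.3% of all tallied reads, of which multi-aligned reads were 18.4 to 28.5%) were left out. A gene family with similar members can lose reads as multi-aligned. Genes were filtered for low counts, scaled by TMM over all genes, and fitted in edgeR 4.0.16 (R 4.3.3) with the quasi-likelihood test on all 18 libraries without covariates. Contrasts set each time against untreated and each time against the one before, and 1 F test covered all 6 groups, each with Benjamini-Hochberg adjustment over the 16824 genes tested. The threshold was an adjusted p under 0.05. Levels per kilobase used the union of annotated exons. The fit was checked on simulated counts.

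Named genes were all collagen chains, per list and time up to 4 called members with the largest change (and any called against the majority), and the 5 genes most correlated with Col1a1 and with Col4a1. The collagen genes, their classes and the lists of biosynthesis genes and cell markers were chosen with earlier results of these data known. Alternatives were RLE scaling, library totals alone, mitochondrial genes left out, no low-count filter, a replicate block, a fit on the groups compared only, DESeq2 1.42.0, and leaving out each library in turn. Of the lists, adipose and adrenal markers had no call at any time and summed to 1.12 to 15.2 CPM over all libraries, and Cyp11b1 and Cyp11b2 had no read. No library was a copy of another. RefSeq windows (GRCm38.p6) were missing for Col12a1, Col14a1, Col1a1, Col22a1, Col26a1, Col2a1, Col4a3, Col5a2 and Col9a3. Figures used matplotlib 3.10.9 (Python 3.11.15).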

Additional observations from a re-analysis of the deposited data

Results flagged for a closer look

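Col6a2 had every day 2 library below all untreated ones (log2 fold change -1.19) and every library of day 3, day 7 and day 14 above them (2.20, 2.63 and 2.27). Of these differences, that of day 3 from day 2 was tested and did not pass (log2 3.39, edgeR adjusted p = 0.0612), and those of day 7 and day 14 from day 2 were not tested. Col14a1 had all libraries of day 1 (-1.07) and day 2 (-1.37) below the untreated range and all of day 14 (1.55) above it. Col27a1 had all libraries of day 1 below (-0.98) and all of day 14 above (0.80). Neither Col14a1 nor Col27a1 passed against untreated at any time, and Col6a2 passed at day 7 only. For Col14a1 and Col27a1 the differences of day 14 from day 1 or day 2 were not tested. The share of all genes with such a pattern is not given here.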

How the results depend on the processing

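Of 63 collagen calls against untreated, 36 held in every fit that left out 1 library, 44 under every other alternative and 32 under both, and no direction reversed. Leaving out 1 library gave 7 to 10 collagen calls at day 1, 9 to 14 at day 2, 8 to 13 at day 3, 11 to 15 at day 7 and 5 to 9 at day 14, 0 to 1 for day 3 against day 2, 0 for the other successive times, and 18 to 23 across the 6 groups. For the 3 biosynthesis and receptor lists, with 4, 5, 4, 6 and 5 calls at days 1, 2, 3, 7 and 14, the same ranges were 1 to 3, 2 to 6, 0 to 2, 2 to 6 and 1 to 5. The fewest came without day 1 replicate 1 or 3 at day 1, without untreated replicate 3 at day 2 and day 3, without untreated replicate 2 or 3 at day 7 and without untreated replicate 2 at day 14. DESeq2 gave 13 collagen calls at day 14, 1 for day 2 against day 1 and 2 for day 3 against day 2, and 9, 9, 13 and 11 list calls at days 2, 3, 7 and 14. Over all genes DESeq2 called 3001, 2160, 2151 and 922 at these 4 days, against 2216, 1280, 1298 and 260 in the main fit. Fits on the groups compared gave 8 collagen calls (4 higher and 4 lower) at day 2 and 5 at day 14, and 2 list calls at each of these days. Library totals alone gave 1 collagen call for day 3 against day 2, and 2, 3, 10 and 13 list calls at days 1, 2, 3 and 7. Without the low-count filter 1 collagen gene was called for day 3 against day 2. With a replicate block there were 10, 13, 14, 16 and 7 collagen calls at the 5 times and 22 across the groups, and 3, 3, 2, 6 and 4 list calls. Libraries with the same replicate number did not deviate together (correlations of -0.0543 to 0.0416 over 45 pairs, against -0.0559 to 0.0501 over 90 pairs with other numbers), so the numbers are not taken as pairs. Counted per kilobase instead of per read, the basement membrane share went from 74.4% untreated to 43.9% at day 14 and the fibrillar share from 7.62 to 28.7%. Fewer samples in the fit account for the leave-one-out losses in part by construction, and otherwise the cause was not tested. Depth limits folds against groups near 0 reads, such as untreated Col17a1, Col19a1 from day 1 to day 7 and Col23a1 at day 2.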

Other observations

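Per-kilobase ratios were also taken for chains that share fibrils. The ratio of Col1a1 to Col3a1 was 0.712, 0.968 and 0.214 in untreated kidney, 2.08, 2.12 and 2.48 at day 2, and 0.566, 0.774 and 1.10 at day 14, so the day 14 libraries overlapped the untreated ones. Col5a1 to Col5a2 was 1.09, 0.518 and 0.523 untreated and 3.91, 2.42 and 2.38 at day 1, and lay between 0.398 and 1.63 from day 2 on. These ratios were not tested.

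Plod2, the lysyl hydroxylase of the collagen telopeptides, differed across the 6 groups (edgeR adjusted p = 0.000249). It had 21.9, 52.5 and 31.8 CPM untreated, 74.3, 62.4 and 51.4 CPM at day 2 and 14.7, 12.5 and 12.3 CPM at day 14. Lair1, an inhibitory collagen receptor of leukocytes (adjusted p = 0.00655), and the cross-linking enzymes Loxl1 (adjusted p = 0.00685) and Loxl3 (adjusted p = 0.019) also differed across the groups with no call against untreated. The highest Loxl3 level was that of 1 library, with 0.781, 1.62 and 13.0 CPM at day 14 and at most 1.18 CPM in the other groups.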
